A study of Mus musculus with 2 samples.

Results

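The stretch described here is a run of neighbouring genes on mouse chromosome 4, from Acer2 to Svbp, that was read in a pair of cultured mouse cell clones. A probe set counted as a member when its annotation gave exactly 1 gene symbol and the gene lay between Acer2 and Svbp, both included, in the gene order of assembly GRCm38.p6. This gave 136 of 10581 probe sets with 1 symbol, standing for 101 of 7542 genes. RefSeq lists 288 protein-coding genes in the stretch, of which 97 were members, and 4 members were of other types. The borders were selected on the ratios of these same arrays, because most genes between them had higher signals in clone D16 than in clone D351. The ratios of the members therefore describe what selected them, and no test was made of them.

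The 2 clones, D16 and D351, were mesoangioblasts, progenitor cells of the vessel wall from which muscle and other mesodermal cells can form. Both came from the dorsal aorta of C57BL6 embryos of day 9.5, kept as an explant for 5 days, and both were untreated. Single cells were cloned by limiting dilution over mitomycin C-treated embryonic mouse fibroblasts in RPMI with 20% fetal calf serum, and growing clones were expanded on gelatin. Each group is thus 1 clone and 1 array (Affymetrix MG-U74B, total RNA), so every difference is between 2 RNA samples, with no replicate to set it against. Bulk RNA cannot tell fewer cells that express a gene from less of its RNA per cell.

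Many neighbouring mammalian genes have promoters of their own, and most neighbours have unrelated functions. Tandem gene families are the exception, and the stretch holds several, such as the type I interferons and the Cyp2j and Cyp4 cytochromes P450. Most of its other genes serve general cell functions, among them RNA processing, translation, mitochondrial assembly, protein turnover and transcription. It also holds regulatory genes, such as the receptor gene Ror1 and the transcription factor gene Nfia.

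Signals are the authors' processed intensities in arbitrary units. A floor was set at 16.8, the 50th percentile of both arrays together, and lower values were lifted to it. The log2 ratio of D351 over D16 was then taken. A gene was measured when a probe set reached the floor on at least 1 array, and its measured probe set with the highest mean signal stood for it. Negative ratios mean a higher signal in D16. Where 1 array lay below the floor the fold is a bound, written as "at least". Of the 101 members, 62 were measured (61.4%, against 65.3% of all genes), and 39 were under the floor on both arrays, with signals from 0.3 to 16.5.

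To show what sequence lies at the start of the members that differed most, the promoter windows of the pair with the largest deposited-scale ratios towards D16 (Ndc1 and Pde4b) and of the member with the largest ratio towards D351 (Tceanc2) are given from RefSeq, build GRCm38.p6. Each window runs 5′ to 3′ from 250 bases before the transcription start to 50 after it. The Ndc1 window is chr4:107367797-107368096 on the plus strand, the Pde4b window chr4:102421305-102421604 on the plus strand, and the Tceanc2 window chr4:107178317-107178616 on the minus strand. Pde4b has 4 windows in the table, and the one farthest upstream is shown. Capitals mark matches, on either strand, to 8 motifs searched. These were the CCAAT box (spelled CCAAT), the GC box (spelled GGGCGG), the TATA box (spelled TATAAA) and the cell cycle homology element (spelled TTTGAA). The others were an E2F site (spelled TTTCGCGC), an E box (spelled CACGTG), an AP-1 site (spelled TGACTCA) and a GATA site (spelled GATAAG).
Ndc1: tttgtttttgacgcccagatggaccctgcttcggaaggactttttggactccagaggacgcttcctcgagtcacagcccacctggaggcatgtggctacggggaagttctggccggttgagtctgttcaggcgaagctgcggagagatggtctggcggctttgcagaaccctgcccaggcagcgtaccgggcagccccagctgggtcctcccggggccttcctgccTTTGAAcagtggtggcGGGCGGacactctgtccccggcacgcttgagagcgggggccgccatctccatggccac
Pde4b: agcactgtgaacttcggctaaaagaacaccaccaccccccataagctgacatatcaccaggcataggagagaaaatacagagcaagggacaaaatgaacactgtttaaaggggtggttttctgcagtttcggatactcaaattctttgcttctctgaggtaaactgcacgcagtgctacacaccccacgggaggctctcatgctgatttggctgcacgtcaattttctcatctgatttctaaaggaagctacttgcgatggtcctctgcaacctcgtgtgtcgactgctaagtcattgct
Tceanc2: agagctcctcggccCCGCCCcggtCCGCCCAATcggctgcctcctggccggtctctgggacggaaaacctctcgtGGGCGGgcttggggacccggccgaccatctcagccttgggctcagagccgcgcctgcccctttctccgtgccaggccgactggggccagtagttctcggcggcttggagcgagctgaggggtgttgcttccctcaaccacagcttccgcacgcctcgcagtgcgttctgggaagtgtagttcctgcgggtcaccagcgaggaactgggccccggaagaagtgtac
The Ndc1 window held 18 CpG dinucleotides (63.7% GC), with 1 match to TTTGAA and 1 to GGGCGG. The Tceanc2 window held 25 CpG dinucleotides (67.7% GC), with 3 matches to GGGCGG and 1 to CCAAT, which overlaps one of them. The Pde4b window held 8 CpG dinucleotides (47% GC) and no match. The GC-rich windows of Ndc1 and Tceanc2 thus belong to genes on opposite sides of the comparison.

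Of the 62 measured genes, 54 had a ratio below 0 and 8 a ratio above 0. At least 2-fold higher signals were found in D16 for 35 genes (56.5%), against 8.57% of all 4922 measured genes, and in D351 for 3 genes (4.84%), against 9.49%. Ratios below 0 were found for 50.7% of all measured genes. Since these ratios set the borders of the stretch, nothing is read from the gap between these shares. The median log2 ratio of the members was -1.15, a 2.22-fold higher signal in D16, with quartiles of -1.74 and -0.47. The median of all measured genes was -0.01. In 12 members 1 array was under the floor, that of D351 in 10 and that of D16 in 2. Over the 50 members at the floor on both arrays the median was -1.28. Of the 35 genes, 29 lay between 2-fold and 4-fold and 6 at 4-fold or more. The share of all measured genes at 4-fold was not counted, so nothing is read from this split. Past 3-fold towards D16 it was 2.78% of all measured genes, against 32.3% of the members.

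The scale of the arrays bears on every ratio. Both arrays had a trimmed mean of 40.0, so a difference shared by all transcripts could not be seen. Bacterial and phage control transcripts (BioB, BioC, BioDn, CreX) were read by 9 probe sets above the floor, 8 of which were higher in D16, the median of the 9 by 1.44-fold. Scaled to these controls, the median of all measured genes moved to 0.45 and that of the stretch to -0.66, a gap of -1.11 between them against -1.14 as deposited. On that scale 47 of 61 measured members had a ratio below 0, and the share of all genes below 0 was not counted. At least 2-fold higher in D16 were 21 members (34.4%, against 3.28% of all measured genes). Its values are given beside some role groups and sections, but it moved the medians of all of them. The median of the mitochondrial genes, for example, became -0.84 and that of the transcription genes -1.16.

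**Figure D1:**
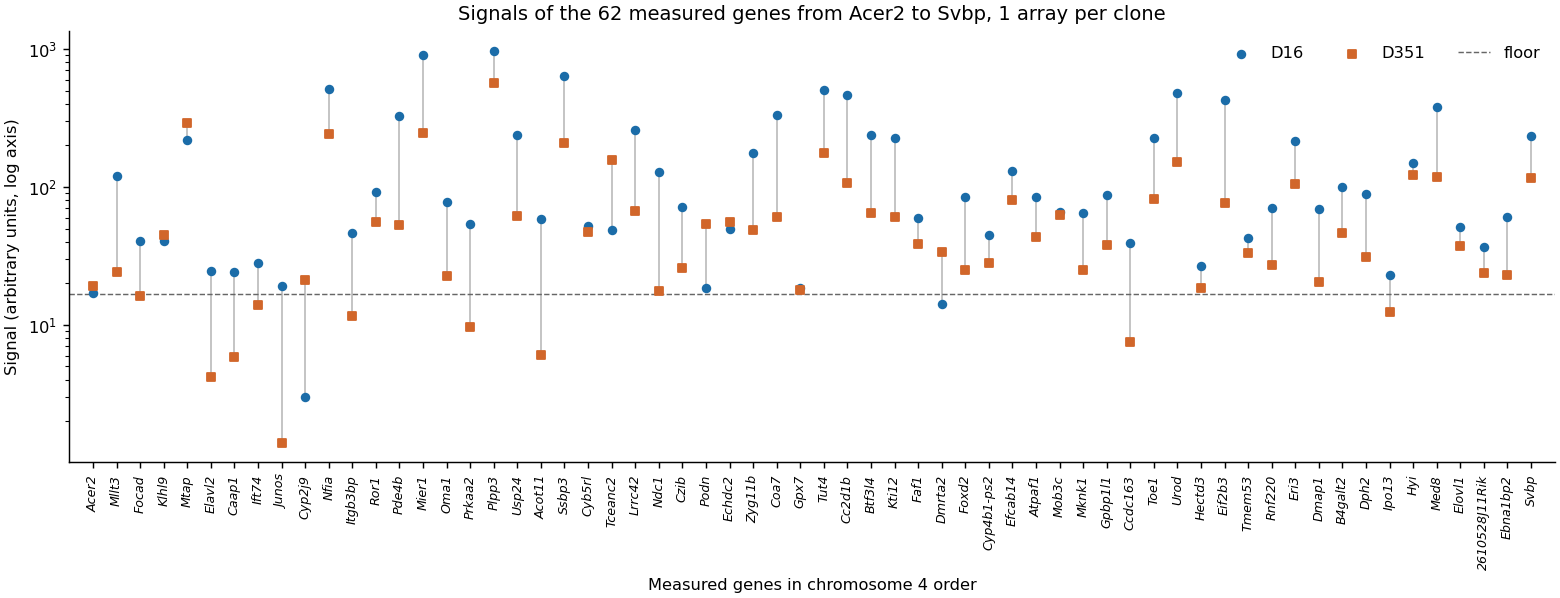
Signal of each of the 62 measured genes in chromosome order (x axis) on the D16 array (blue circles) and the D351 array (orange squares), on a log axis in arbitrary units, joined by a grey line. The dashed line is the floor of 16.8. The D16 point lies above the D351 point in 54 genes as deposited, and all 25 genes from Foxd2 to Svbp are among them. These signals set the borders, so nothing is read from that run.

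The 6 members at 4-fold or more encode proteins of different functions. Ndc1, a transmembrane nucleoporin that anchors nuclear pores in the envelope, read 128.2 in D16 and 17.5 in D351, a 7.33-fold difference. Another Ndc1 probe set read 113.5 and 28.6 (3.97-fold), and it was the brighter one with the control scaling, where the gene had a log2 ratio of -1.47 and did not lead the list. Pde4b, a phosphodiesterase that breaks down cAMP, read 327.7 and 53.3 (6.15-fold). Eif2b3, a subunit of the exchange factor that recharges initiation factor eIF2 with GTP, read 424.8 and 76.5 (5.55-fold). All 3 were bright in D16, and the D351 signal of Ndc1 was just above the floor. Coa7, an assembly factor of cytochrome c oxidase, read 330.3 and 60.9 (5.42-fold). Mllt3, a subunit of the super elongation complex that reads acylated histones, read 120.3 and 24.0 (5.01-fold). Cc2d1b, a partner of the ESCRT-III membrane remodelling machinery, read 462.5 and 107.4 (4.31-fold). In all 6 both arrays reached the floor.

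RNA and translation genes had 8 measured members of 9 on the array, all with ratios below 0 (median log2 -1.52). Of them 7 were at least 2-fold higher in D16, or 3 with the control scaling. For this and the groups that follow, that share was 56.5% over all measured members and 8.57% over all measured genes. With the control scaling the shares were 34.4% and 3.28%. The role counts are made of the ratios that set the borders, so nothing is read from them. Besides Eif2b3, Tut4, which adds uridines to RNA 3′ ends, read 506.0 in D16 and 177.4 in D351 (2.85-fold). Btf3l4, a relative of the nascent polypeptide-associated complex, read 237.0 and 64.3 (3.69-fold), and Kti12 read 226.3 and 60.1 (3.77-fold). Toe1, a deadenylase that trims small nuclear RNAs, read 228.1 and 81.9 (2.79-fold). Each of these 4 was bright in D16 and at least 2-fold dimmer in D351. Dph2, which takes part in making diphthamide on elongation factor 2, read 89.5 and 31.2 (2.87-fold). Ebna1bp2, a nucleolar protein of ribosome assembly, read 61.0 and 23.1 (2.64-fold). Elavl2, a neuronal RNA-binding protein, was the member under 2-fold, with 24.7 and 4.2 (at least 1.47-fold). Its D16 signal was close to the floor, which keeps the bound low.

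Transcription and chromatin genes had 9 measured members of 13 on the array, with 8 at least 2-fold higher in D16, or 6 with the control scaling, and 1 in D351 (median log2 -1.68). Mier1, which recruits histone deacetylases, read 908.8 in D16 and 245.1 in D351 (3.71-fold). Ssbp3, a partner of LIM-domain binding proteins, read 634.4 and 206.7 (3.07-fold). Both were among the brightest members. Nfia, a nuclear factor I protein, read 516.3 and 242.5 (2.13-fold), and the Mediator subunit Med8 read 377.2 and 117.9 (3.20-fold). Foxd2, a forkhead factor, read 84.6 and 24.9 (3.40-fold), and Dmap1, of the NuA4 and SRCAP complexes, read 69.5 and 20.4 (3.41-fold). Gpbp1l1, related to a promoter-binding protein, read 86.9 and 38.2 (2.27-fold). Mllt3, given above, completes the 8. Dmrta2, a DM-domain factor of neural development, went the other way, with 14.3 in D16 and 34.0 in D351 (at least 2.02-fold higher in D351). Its D16 signal was under the floor.

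Genes for mitochondrial proteins had 4 measured members of 5 on the array, with 2 at least 2-fold higher in D16 (median log2 -1.36). Besides Coa7, Oma1, a stress-activated protease of the inner membrane, read 77.4 in D16 and 22.7 in D351 (3.41-fold). Atpaf1, which helps assemble the F1 part of ATP synthase, read 84.0 and 43.2 (1.94-fold), just under the 2-fold rule. Echdc2, an enoyl-CoA hydratase domain protein, read 50 and 55.4, with a log2 ratio of 0.15.

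Ubiquitin and protein turnover genes had 7 measured members of 9, with 4 at least 2-fold higher in D16 (median log2 -1.03), or 2 with the control scaling. Usp24, a deubiquitinase, read 236.2 in D16 and 61.4 in D351 (3.85-fold). Zyg11b, a substrate receptor of a cullin-RING ligase, read 175.9 and 48.6 (3.62-fold). Rnf220, a RING ubiquitin ligase, read 70.3 and 27.0 (2.60-fold). Svbp, the partner of the vasohibins that remove tyrosine from tubulin, ends the stretch and read 236.1 and 115.7 (2.04-fold). Its probe set has the ending _f, which marks probes that related transcripts can share. The differences of Faf1, an adaptor of the VCP segregase (log2 -0.63), and of the HECT ligase gene Hectd3 (-0.52) were smaller. Klhl9, an adaptor of a cullin ligase, read 40.9 and 44.7 and had a ratio slightly above 0 (0.13).

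Receptor, kinase and signalling genes had 5 measured members of 7, with 3 at least 2-fold higher in D16 (median log2 -1.39), or 2 with the control scaling. All 5 ratios were below 0 as deposited, and that of Mob3c was above 0 with the control scaling. Prkaa2, a catalytic subunit of the energy sensor AMPK, read 53.6 in D16 and 9.7 in D351 (at least 3.19-fold). Mknk1, a kinase that phosphorylates the cap-binding factor eIF4E, read 65.3 and 24.9 (2.62-fold). Pde4b, given above, was the third. Ror1, a receptor for Wnt5a, read 92.1 and 55.6 (1.66-fold), and Mob3c, of the MOB kinase activator family, had nearly equal signals of 66.3 and 63.1.

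Lipid genes had 5 measured members of 6, including Prkaa2, and 2 were at least 2-fold higher in D16 (median log2 -0.78, or -0.26 with the control scaling). Acot11, an acyl-CoA thioesterase, read 59.0 in D16 and 6.1 in D351 (at least 3.51-fold). Plpp3, a phosphatase of lysophosphatidic acid and other lipid phosphates, was the brightest member in both clones, with 970.2 and 565.2 (1.72-fold). Elovl1, which elongates very long fatty acids, had a log2 ratio of -0.45 on an _f probe set, which turned above 0 with the control scaling. Acer2, a Golgi ceramidase and the first gene of the stretch, read 17.1 and 19.2, both close to the floor, with a ratio of 0.17.

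Other metabolic and redox genes had the median closest to 0 among the role groups as deposited, though not with the control scaling, with 6 measured members of 6 and a median log2 ratio of -0.09 (0.37 with the control scaling). On either scale 1 member was at least 2-fold higher in D16. That member was Urod, an enzyme of haem synthesis, which read 483.1 in D16 and 151.3 in D351 (3.19-fold) on an _f probe set. Mtap, which salvages methionine from methylthioadenosine, was among the brighter members and read 219.3 and 288.9, with a ratio above 0 (0.40). Cyp2j9, a cytochrome P450, read 3.0 and 21.2, a log2 ratio of at least 0.34, and has near-identical relatives beside it. Hyi, named for an isomerase of hydroxypyruvate but listed as a transcribed pseudogene in the annotation used here, had a ratio of -0.30 on an _i probe set. Cyb5rl, related to cytochrome b5 reductase, had -0.14, and the endoplasmic reticulum peroxidase gene Gpx7 -0.03 on an _r probe set. No test of this group against the other roles was made.

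Of the genes for vesicles and nuclear transport 3 of 6 were measured, all with ratios below 0. Beside Ndc1, Ift74, of the intraflagellar transport machinery, read 28.1 in D16 and 13.9 in D351 (at least 1.67-fold), and the importin gene Ipo13 read 22.9 and 12.5 (at least 1.36-fold). The 1 measured glycosylation gene, the galactosyltransferase gene B4galt2, read 99.7 and 46.1 (2.16-fold), a call lost with the control scaling (log2 -0.59). Of 13 cell cycle and DNA repair genes listed for the stretch, 1 was on the array. This was Itgb3bp, a protein of the inner kinetochore, which read 46.5 and 11.7 (at least 2.77-fold). Without it the median of the other 61 measured members was -1.11.

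**Figure D2:**
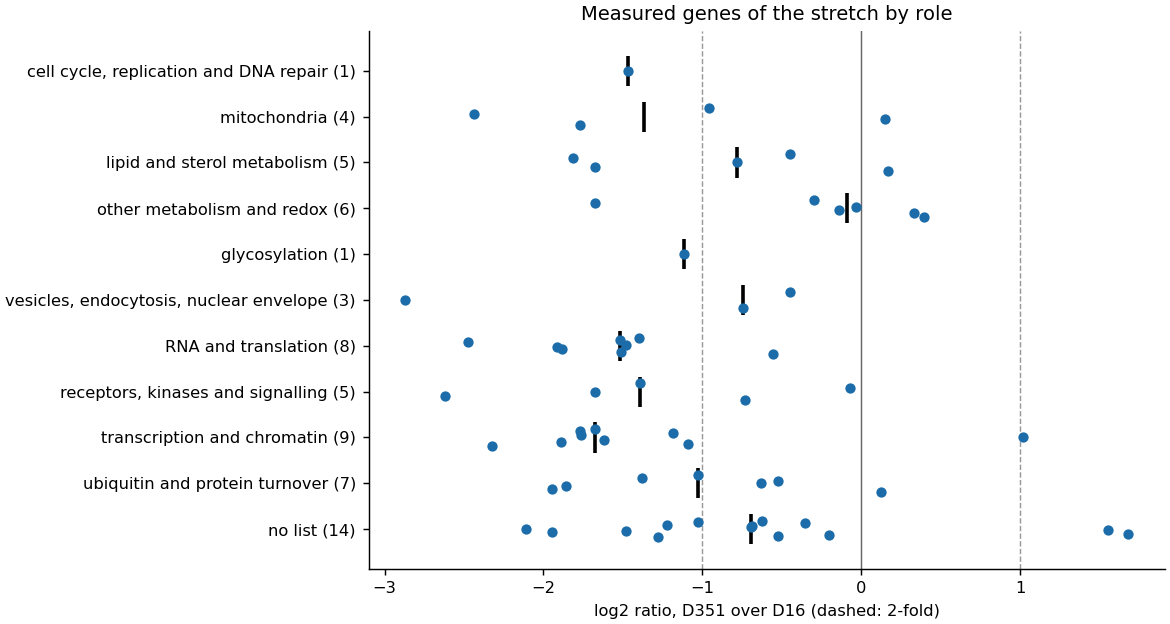
Log2 ratio of D351 over D16 (x axis) of the measured members by role (y axis, number measured in brackets), with 1 point per gene and a black bar at the median. Dashed lines mark 2-fold. A gene in more than 1 list is drawn in each, and 8 of 9 transcription genes and 7 of 8 RNA genes lie at or left of the 2-fold line towards D16 on the deposited scale.

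A further 14 measured members were in no role list, with 6 at least 2-fold higher in D16 and 2 in D351. With the control scaling Lrrc42 and Cc2d1b kept the call towards D16, and Focad, Czib, Ccdc163 and Eri3 lost it. Lrrc42, a leucine-rich repeat protein, read 259.2 in D16 and 67.2 in D351 (3.86-fold), and Czib, a zinc-binding protein, read 72.2 and 25.9 (2.79-fold). Focad, a protein of focal adhesions, read 40.7 and 16.2 (at least 2.42-fold), and Ccdc163, a coiled-coil protein, read 39.2 and 7.5 (at least 2.33-fold). Eri3, of a 3′ exonuclease family, read 214.2 and 105.2 (2.04-fold). With Cc2d1b these are the 6. Ratios below 0 but under 2-fold were found for the pseudogene Cyp4b1-ps2 (log2 -0.70), the EF-hand gene Efcab14 (-0.69), the gene model 2610528J11Rik (-0.63) and the membrane protein gene Tmem53 (-0.35). Caap1, an inhibitor of caspase activity, read 24.1 and 5.9 (log2 at most -0.52). Junos, a transcript antisense to Jun, read 19.3 and 1.4 (log2 at most -0.20). These last bounds are small because the D16 signals were near the floor.

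The members that did not follow the run were 8 of the 62, or 14 of 61 with the control scaling, which adds Cyb5rl, Gpx7, Mob3c, Tmem53, Hyi and Elovl1. Tceanc2, which carries the N-terminal domain of elongation factor TFIIS, read 49.0 in D16 and 157.3 in D351, a 3.21-fold higher signal in D351. Another Tceanc2 probe set stayed below the floor in both clones (3.8 and 9.5), so the ratio rests on 1 probe set. Podn, which encodes the small leucine-rich matrix proteoglycan podocan, read 18.4 and 54.0 (2.93-fold higher in D351). Dmrta2 is the third past 2-fold. These 3 encode proteins of different kinds, and 2 of them were near or under the floor in D16. The ratios of Acer2, Klhl9, Mtap and Echdc2 lay between 0.13 and 0.40, and that of Cyp2j9 was at least 0.34. Tceanc2 lies among genes with large ratios the other way, since the next measured members are Lrrc42 and Ndc1. The measured member before it, Cyb5rl, was close to equal (51.8 and 47.0). Acer2, Klhl9, Mtap and Cyp2j9 lie in the first section of the stretch, before Nfia.

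Along the stretch the ratios were uneven. Over all 62 measured members 56.5% were at least 2-fold higher in D16, against 8.57% of all measured genes. The first 21 measured genes, from Acer2 to Ssbp3, had a median log2 ratio of -1.09 with 11 at least 2-fold higher in D16 and 9 bounds. With the control scaling 20 of them were measured, with a median of -0.69 and 9 higher in D16. The next 21, from Cyb5rl to Mob3c, had a median of -0.96 with 10 higher in D16 and the 3 that were at least 2-fold higher in D351. With the control scaling the median of these 21 was -0.44, with 8 higher in D16 and 7 ratios above 0 in place of 4. The last 20, from Mknk1 to Svbp, had a median of -1.20, with 14 at least 2-fold higher in D16 and 20 of 20 below 0 (4 and 17 with the control scaling). The longest unbroken run of ratios below 0 held 25 measured genes, from Foxd2 to Svbp, of which 21 were below 0 with the control scaling. As deposited, ratios below 0 were found for 87.1% of the measured members and 50.7% of all measured genes. They were found for 74.2% of the 62 measured genes before Acer2 and 71.0% of the 62 after Svbp. Since these ratios set the borders, nothing is read from the run or from the section counts. The running median over 15 measured genes was lowest at -1.76, centred on Gpx7, and highest within the stretch at -0.52, centred on Focad near its start.

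The borders were not sharp. The last measured genes before Acer2 were Haus6 (26.2 in D16 and 16.7 in D351, log2 at most -0.64), Adamtsl1 (3.6 and 19.7, at least 0.23) and Cntln (46.6 and 81.2, 0.80), and before them came Psip1 (44.9 and 24.2, -0.89). Just inside, Mllt3 had -2.33 and Focad at most -1.28. At the other end Ebna1bp2 had -1.40 and Svbp -1.03, and the first measured genes outside were AU022252 (99.6 and 54.4, -0.87), P3h1 (55.7 and 74.8, 0.43) and Ppih (26.3 and 2.6, at most -0.65). The 62 measured genes before Acer2 had a median of -0.48, with 12 at least 2-fold higher in D16 (19.4%), and the 62 after Svbp a median of -0.25 with 11 (17.7%). Chromosome 4 outside the stretch had a median of -0.21 over 233 measured genes, of which 15.5% were at least 2-fold higher in D16. As deposited, medians below 0 thus extended past both borders. With the control scaling the genes before Acer2 had a median of -0.01 (61 measured), those after Svbp 0.24 (59 measured) and the rest of chromosome 4 0.27, against -0.66 in the stretch.

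**Figure D3:**
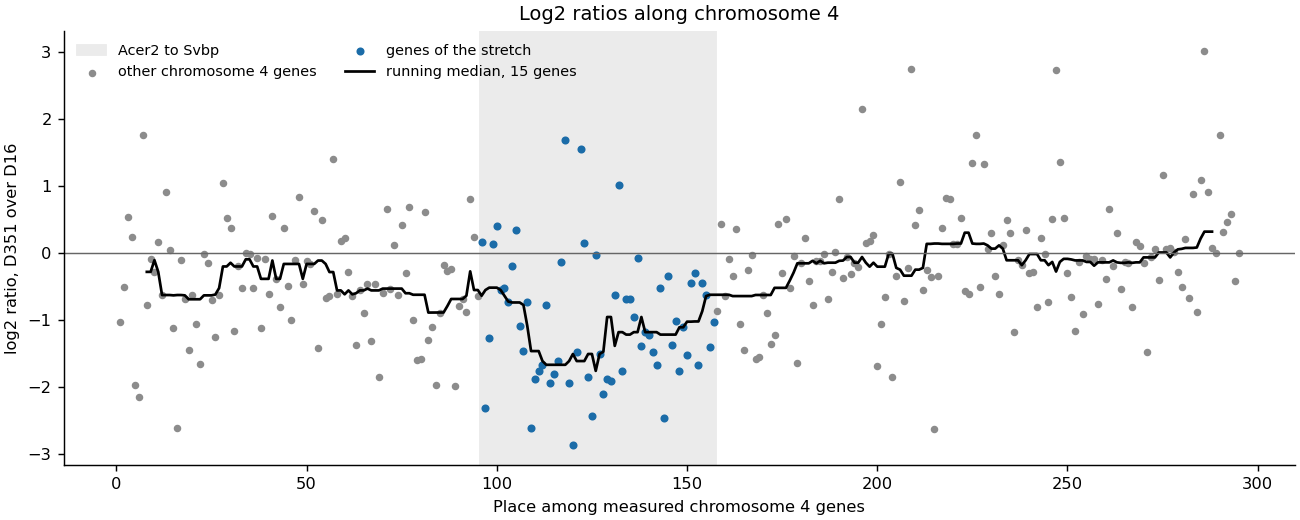
Log2 ratio of D351 over D16 (y axis) of the 295 measured genes of chromosome 4 in gene order (x axis, place in order), with members in blue on a grey band and other genes in grey. The black line is the running median of 15 genes, which falls to -1.76 inside the band and stays at or above -0.89 in windows centred before it and -0.65 in windows centred after it.

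**Figure D4:**
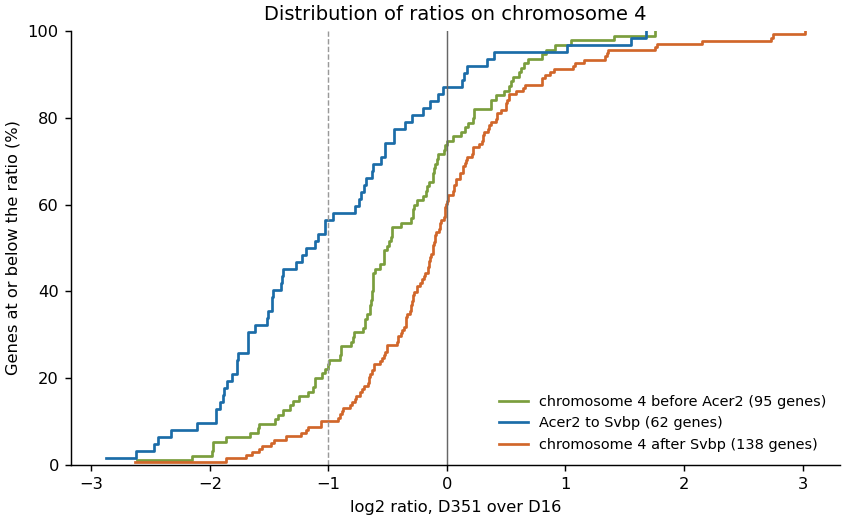
Share of genes (y axis, percent) at or below each log2 ratio of D351 over D16 (x axis) for the 95 measured chromosome 4 genes before Acer2, the 62 from Acer2 to Svbp and the 138 after Svbp. At the dashed line, 2-fold higher in D16, the curves stand at 23.2%, 56.5% and 10.1%.

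Some members were read by several probe sets, which share the arrays. Whether their probes overlap was not checked, as probe sequences were not available here. Of 136 member probe sets 75 were measured, with 66 ratios below 0, against 49.7% of all measured probe sets with 1 symbol, and 44 at least 2-fold higher in D16, against 8.18%. In 12 genes at least 2 probe sets were measured, and in 11 of these every ratio was below 0. In 7 genes (Coa7, Mllt3, Ndc1, Prkaa2, Rnf220, Ssbp3 and Zyg11b) every measured probe set was at least 2-fold higher in D16. Zyg11b had 3 such probe sets, between -1.86 and -1.17. Pde4b was the least even of these genes, with -2.62 on its brighter probe set and at most -0.12 on another, whose D16 signal of 18.2 was near the floor. Med8 had -1.68 on its brighter probe set and 0.29 (21.5 in D16 and 26.3 in D351) on the dimmer one. The counts of genes whose probe sets agree were not made over all genes with several measured probe sets. Since the ratios of the members set the borders, nothing is read from these counts.

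**Figure D5:**
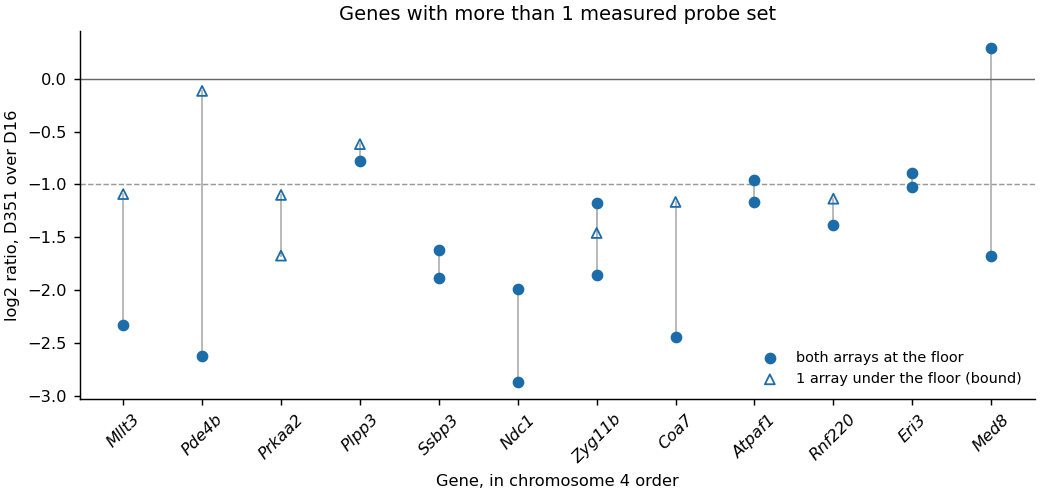
Log2 ratio of D351 over D16 (y axis) of each measured probe set in the 12 members with more than 1 (x axis, in gene order), with filled circles where both arrays reached the floor and open triangles for bounds. The dashed line marks 2-fold, and the upper Med8 point, at 0.29, is the 1 point above 0.

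Orientation and promoter make-up were not used to choose the members, but the ratios set beside them were. Of the 57 measured members with a strand in the RefSeq promoter table, the 36 on the plus strand had a median of -1.03 and the 21 on the minus strand one of -1.47. Ratios below 0 were found for 32 and 17 of them. Among protein-coding genes that are direct neighbours, 16 pairs had both genes measured. In 5 of these pairs both genes were at least 2-fold higher in D16, and in 1 the genes lay on opposite sides of 0 (Faf1 at -0.63 and Dmrta2 at 1.02). Of all 62 measured members 56.5% passed 2-fold towards D16, against 8.57% of all measured genes. Since these ratios set the borders, nothing is read from the counts of pairs. Neighbours could differ in size, as did Hectd3 (-0.52) and Eif2b3 (-2.47), or Mob3c (-0.07) and Mknk1 (-1.39). Of the 16 pairs, 7 stand head to head on opposite strands. In Zyg11b (-1.86) and Coa7 (-2.44), Mllt3 (-2.33) and Focad (at most -1.28), Acot11 (at most -1.81) and Ssbp3 (-1.62), and Rnf220 (-1.38) and Eri3 (-1.03), both genes passed 2-fold. In Gpx7 (-0.03) and Tut4 (-1.51), Urod (-1.67) and Hectd3 (-0.52), and Prkaa2 (at most -1.67) and Plpp3 (-0.78), 1 gene did.

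Promoter windows were found for 92 of the 101 members. The 44 windows of members at least 2-fold higher in D16 had a median of 20 CpG dinucleotides and 61.8% GC, and the 41 windows of the other measured members 17 and 60.3%. Members under the floor had a median of 7 CpG dinucleotides in 44 windows, as had all 32851 windows. The motif GGGCGG, a GC box, was in 63.6% of the windows of members higher in D16, in 58.5% of those of other measured members and in 35.7% of all windows. CCAAT was in 38.6%, 53.7% and 37.4%, and TATAAA in 2.27%, 2.44% and 13.6%. TTTGAA was in 15.9%, 14.6% and 17.9%, and CACGTG in 11.4%, 7.32% and 7.15%. TGACTCA was in 2.27%, 7.32% and 5.20%, GATAAG in 9.09%, 7.32% and 7.44%, and TTTCGCGC in 0 of 44, 0 of 41 and 0.32%. Measured members of either kind thus had more CpG dinucleotides and GC boxes than the table as a whole. Members under the floor were close to the table, with GGGCGG in 38.6% of their windows. Windows of measured genes outside the stretch were not counted, so this is not shown to be a trait of the stretch. These are matches of letters, and several windows belong to 1 gene.

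The 39 members under the floor on both arrays have no ratio. They include genes of restricted expression such as the complement genes C8a and C8b, the hormone gene Insl5, the neuronal genes Elavl4 and Dab1, the erythroid membrane gene Ermap and the sodium exchanger gene Slc24a2. The tandem P450 gene Cyp2j11, the glucosyltransferase gene Alg6 and the endocytic adaptor gene Eps15 were also under the floor. The others were Pramel32, Zfp352, Lrrc19, Mysm1, Hook1, L1td1, Kank4, C130073F10Rik, Sgip1, Tctex1d1, Wdr78, Calr4, Ttc39a, Rnf11, Bend5, Slc5a9, Trabd2b, Faah, Tspan1, Tmem69, AV051173, Hpdl, Zswim5, Klf17, St3gal3, Ptprf, Tmem125, Cfap57 and Lao1. Such values say that the array did not read these genes above the floor, not that they were silent.

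Cell type markers also differed between the arrays. Of 12 mesoangioblast and mural markers Cspg4 (83.3 in D16 and 26.1 in D351), Cd44 (1164.5 and 1092.5) and Met (259.8 and 121.5) were on the array, and the defining Cd34, Kit and Kdr were not analysed here. Of 15 genes listed as embryonic fibroblast markers (such cells also formed the feeder layer), 6 were on the array, and 5 passed 2-fold towards D351. These were Prrx1 (149.3 in D16 and 546.8 in D351), Cd248 (238.9 and 564), Aspn (3.6 and 177.4), Col5a2 (12.4 and 60.1) and Sfrp1 (48.2 and 900.3). The sixth, Tcf4, passed it towards D16 (544.8 and 205.6, log2 -1.41). Whether Tcf4 marks fibroblasts was not checked, so no sum over the list is given. Of 6 endothelial markers Flt1 was on the array, with 10.3 and 44.5. The part of these differences in the ratios of the stretch was not tested.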

How the data were processed

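Expression of clones D16 and D351 was read on 1 array each. The authors deposited 1 processed intensity for each probe set of an array, on a linear scale. How they were computed is not given in the sources used here. Trimmed means (2% off each end) matched within 5%, so values were used as deposited. The table held 12477 probe sets, of which 66 controls were left out of the comparison. Of the other 12411, 10581 had 1 symbol, 178 several and 1652 were unnamed here. Names came from GEO's platform annotation, matched by gene identifier to RefSeq of GRCm38.p6, which placed 10550. That assembly gave gene order and promoter windows. The arrays name no build.

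Signals summed to 653854 (D16) and 646285 (D351). With 1 array per clone no p-value or error was computed, and the number of arrays limits the precision. The floor, ratio and 2-fold rule are given in the report. The 2-fold rule requires the brighter array at the floor.

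The members and role lists were chosen with earlier results of these data known. Signals are printed for every member past 2-fold or above 0 and for some others, and the rest are summarised by role. Other settings tried were scalings (median, quantile, loess with span 0.3, control probe sets), floors (25th and 75th percentile), fold rules (1.5 and 3), probe set choice and gene choice. The ratio code was tested on simulated data. Python 3.11.15, numpy 2.4.6, pandas 2.3.3, statsmodels 0.14.6 and matplotlib 3.10.9 were used.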

Additional observations from a re-analysis of the deposited data

How the results depend on the processing

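As deposited, 35 of 62 measured members were at least 2-fold higher in D16 and 3 in D351, and the median ratio (log2) was -1.15. Scaling to the control probe sets gave 21, 3 and -0.66, and 14 members lost the 2-fold call, while uncalled ratios of 6 changed sign. The floor at the 75th percentile (53.5) gave 20 of 43, 1 and -0.78, and 13 members lost the call. The floor at the 25th percentile (4.6) gave 43 of 82, 4 and -1.03. The floor reached on both arrays gave 30 of 50, 2 and -1.28. A 3-fold rule gave 20 and 1, and a 1.5-fold rule 43 and 3. The control scaling raises ratios by construction, by unequal amounts where the floor or the brightest probe set of a gene changes (Ndc1 moved to -1.47 on its other probe set), and a higher floor narrows ratios and measures fewer genes. Over all genes the share at least 2-fold higher in D16 was 3.28%, 6.34%, 11.5% and 8.44% under the first 4 of these settings, and 2.78% and 20.4% past the 3-fold and 1.5-fold rules. In the same order, the share of all genes higher in D351 was 21.7%, 7.12%, 11.9% and 8.12%, and 3.60% and 19.3%. It was 9.49% as deposited. Common median, quantile, loess, median over probe sets, plain probe sets, no cell cycle member and no first or last 5 genes were also tried. They gave 30 to 35 members higher in D16, or 53.2% to 57.9% of those measured, and medians from -1.22 to -1.10. The 30 were of the 52 measured genes left without the first and last 5. Over all genes the share higher in D16 was 7.88% to 8.78% under these settings. Calls were lost by Dmrta2 under quantile normalization, by Eri3 and Svbp under loess, and by Eri3 and Med8 with the median over probe sets. No called ratio changed direction under the 8 settings run gene by gene, but this was nearly fixed in advance and nothing is read from it. The control scaling moves a probe set by at most 1.44-fold, which is less than the 2-fold of a call. A changed floor cannot turn the sign of a probe set. No paired analysis was possible because each clone had 1 array, and no replicate could be left out. Signals near the floor limit what the dimmer members show.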

Other observations

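A probe set that lists BC062258 repeatedly, a gene inside the stretch, was not a member because its annotation gives more than 1 symbol entry. It read 36.7 in D16 and 11.2 in D351, a log2 ratio of at most -1.13. The probe set shared by Pomgnt1, a glycosyltransferase gene of the stretch, and 2510003B16Rik was under the floor on both arrays, with 2.7 and 4.7. A probe set for histone H3.3 genes that also lists Gm12657, a gene model of the stretch, read 94.4 and 101.4.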
